A study of Mus musculus with 15 samples.

Results

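The Hox cluster genes are the protein-coding genes named Hoxa, Hoxb, Hoxc or Hoxd with a paralogue number, which mouse annotation places in 4 clusters. They were found by symbol, after the Ensembl identifiers of the authors' deposited table had been matched to the GRCm38 annotation. Of 39 such genes in the annotation, 38 were among the 38355 genes of the table, and Hoxd4 was not analysed here. The Hox A cluster (chromosome 6) gave 11 genes, Hox B (chromosome 11, 96194316 to 96368256) 10, Hox C (chromosome 15, 102921103 to 103036852) 9 and Hox D (chromosome 2, 74668310 to 74765142) 8.

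The table comes from RNA-seq of total RNA, depleted of ribosomal RNA, from mouse embryonic stem cells in 2i medium, which holds a MEK inhibitor at 1 µM, a GSK3 inhibitor at 3 µM and LIF, and keeps the cells in the naive state. Each of 5 groups has 3 replicates, 15 samples in all, and the labels do not say whether replicates were separate cultures. Ezh2-KO cells are Ezh2-/- and Suz12-KO cells Suz12-/-, so that in each a different core protein of Polycomb repressive complex 2 (PRC2) is deleted. Ring1A+B-DKO cells are Ring1A-/-;Ring1B-/- and have lost both ligases with which Polycomb repressive complex 1 (PRC1) ubiquitylates histones. Ezh2-WT cells carry floxed Ezh2 alleles (Ezh2 fl/fl), and E14-WT stands for E14TG2a, a wild-type line. Each group is 1 line. For Ring1A+B-DKO and Suz12-KO the only control was E14-WT, so a difference between lines cannot be told apart from the knockout in those comparisons. The comparisons were Ezh2-KO against Ezh2-WT, Suz12-KO against E14-WT, Ring1A+B-DKO against E14-WT and Ezh2-WT against E14-WT.

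Hox genes encode homeodomain transcription factors that give cells their position along the body axis. Within a cluster they are numbered from the 3′ end, whose genes act in the hindbrain and neck, to the 5′ end, whose genes act in the lower trunk, the limb ends and the genital region, and they come on in that order in the embryo. In embryonic stem cells the clusters are classical Polycomb targets: PRC2 methylates lysine 27 of histone H3 over them, PRC1 ubiquitylates histone H2A, and the genes are kept at or near silence.

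Every fold change and call reported for the Hox genes is taken from the authors' deposited table, which has 1 DESeq2 log2 fold change and 1 call (true or false) for each gene in each comparison. It holds no values per sample, errors or p-values, so the spread between replicates and the depth of the libraries are unknown here, and no difference between comparisons or between genes could be tested. Rose and fell are used of called genes only. The smallest absolute log2 fold change of any called gene was 1.00 in Ring1A+B-DKO, and the criteria of the call are not stated. Fold changes are given as the knockout over its control, and as Ezh2-WT over E14-WT. In the 3 comparisons with E14-WT the deposited sign was turned round for this, since genes with reads in the named group and none in E14-WT all had negative deposited values. In bulk RNA, fewer cells that express a gene and less RNA per cell cannot be told apart. The 10 naive stem cell markers, among them Pou5f1, Nanog and Esrrb, had a value in each of the 4 comparisons. As for the deleted genes, Ring1 fell by 2.03 on the log2 scale in Ring1A+B-DKO, while Rnf2 (Ring1B) stood at 0.17 there, Suz12 at -1.04 in Suz12-KO and Ezh2 at -0.14 in Ezh2-KO, none of these 3 called. The deleted exons are not named in the labels, so these 3 values check the labels little.

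Missing values show which Hox genes had no reads. A missing fold change was read as no reads in either group of that comparison. On that reading 17 of the 38 Hox genes had no reads in Ezh2-WT or E14-WT. In Ring1A+B-DKO 13 of these 17 genes (76.5%) had reads, against 1095 of all 6741 protein-coding genes without reads in the wild-type lines (16.2%). In Suz12-KO 0 of the 17 had reads, against 4.72% of such protein-coding genes. In Ezh2-KO 2 of the 17 had reads (11.8%), against 5.18%. Those 2 were Hoxa11, which patterns the forearm and the uterus, and Hoxc10, a gene of the lumbar spinal cord. How far deeper Ring1A+B-DKO libraries would add to this was not tested, and the share over all protein-coding genes was itself larger there.

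The 38 genes fell into 6 patterns. Reads in Ring1A+B-DKO alone were found for 11 genes from all 4 clusters: Hoxa2, Hoxa3, Hoxa6, Hoxa13, Hoxb2, Hoxb6, Hoxc6, Hoxc9, Hoxd1, Hoxd3 and Hoxd12. That is 28.9% of the Hox genes, against 3.81% of protein-coding genes in the table. No Hox gene had reads in Suz12-KO alone or Ezh2-KO alone, where 0.557% and 0.638% of protein-coding genes did. Hoxa11 and Hoxc10 had reads in Ring1A+B-DKO and Ezh2-KO and in no other group. A further 6 genes, Hoxa4, Hoxa9, Hoxb7, Hoxc5, Hoxc8 and Hoxd10, had reads in Ring1A+B-DKO and Ezh2-WT and none in Suz12-KO or E14-WT. Another 5, Hoxa5, Hoxa7, Hoxb4, Hoxd8 and Hoxd11, had reads in E14-WT and none in Ezh2-KO or Ezh2-WT. For 10 genes, among them Hoxa10, Hoxb9, Hoxb13, Hoxc4, Hoxc13, Hoxd9 and Hoxd13, no comparison was missing and the groups with reads could not be determined. Hoxb1, Hoxb3, Hoxb5 and Hoxb8 had no reads in any of the 5 groups, which was so for 10.5% of Hox genes and 25.3% of protein-coding genes. All 4 lie in the Hox B cluster, where Hoxb2, Hoxb4, Hoxb6 and Hoxb7 between or beside them did have reads in at least 1 group. Antisense genes overlap Hoxb3 and Hoxb5, and how reads over more than 1 gene were counted is not given.

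**Figure D1:**
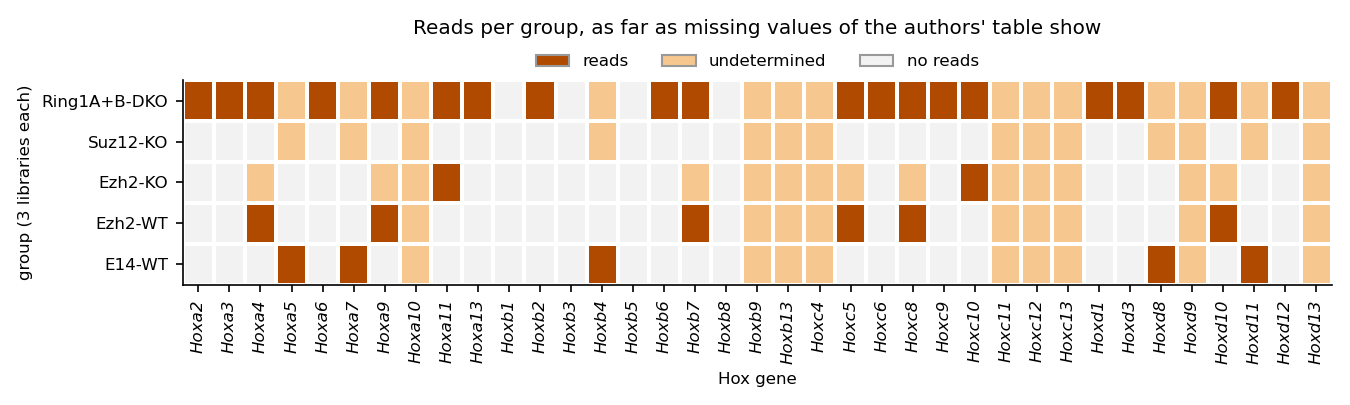
Columns are 37 Hox genes by cluster and paralogue number and rows are the 5 groups; a dark cell marks reads, a pale grey cell no reads and a light orange cell a state that the missing values leave undetermined. The Ring1A+B-DKO row has 19 genes known to have reads, and Hoxb1, Hoxb3, Hoxb5 and Hoxb8 are pale in all 5 rows.

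Ring1A+B-DKO cells, which lack the PRC1 ubiquitin ligases, were set against E14-WT. By the calls of the authors' deposited table, 4 of the 34 Hox genes with a value rose and 0 fell, where 3.00% of all genes tested were called, 2.38% as higher. Those that rose were Hoxd13, Hoxa9, Hoxd8 and Hoxd9. As many as 34 of 34 stood above 0, beside 55.4% of all genes. For 19 of the 34 this sign is fixed, since they had no reads in E14-WT. The other 15 are not known to lack reads in E14-WT and all 15 stood above 0, beside 49.7% of the 17434 genes not known to lack reads in either group. The median log2 fold change of the 34 was 0.66, beside 0.07 over all genes. It was 1.14 over the 13 members whose value no other gene of the table shares. Those members were picked by the Ring1A+B-DKO values themselves, and all genes were not filtered alike, so the 1.14 lends no support.

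Hoxd13 (ENSMUSG00000001819, chromosome 2, 74668310 to 74671599, plus strand) stood highest, at a log2 fold change of 2.51 in Ring1A+B-DKO. It is the last gene of its cluster and patterns digits and the genital tubercle. Its values in Ezh2-KO and Suz12-KO were -0.21 and -0.37, and in Ezh2-WT -0.21, none called. Hoxa9 (ENSMUSG00000038227, chromosome 6, 52223100 to 52231089, minus strand), a gene of the lower trunk and of blood progenitors, rose by 2.14 in Ring1A+B-DKO and had no reads in E14-WT. It stood at -0.07 in Ezh2-KO and at 0.09 in Ezh2-WT, and had no value in Suz12-KO. The microRNA gene Mir196b lies inside the annotated Hoxa9 gene and had no value in any comparison.

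Hoxd8 (ENSMUSG00000027102, chromosome 2, 74704615 to 74707933, plus strand), a gene of the trunk, rose by 1.94 in Ring1A+B-DKO. It had reads in E14-WT, but their number is unknown and may be small, and it stood at -0.06 in both Suz12-KO and Ezh2-WT. The antisense gene Hoxd3os1 overlaps it and stood at 0.29 in Ring1A+B-DKO, and whether the counting used strand is not given in the sources used here. Hoxd9 (ENSMUSG00000043342, chromosome 2, 74697727 to 74700208, plus strand), a paralogue of Hoxa9 that acts with it in limbs and lower trunk, rose by 1.56. It stood at -0.19 in Ezh2-KO, -0.62 in Suz12-KO and -0.30 in Ezh2-WT. The 4 genes that rose in Ring1A+B-DKO thus stood at or below 0.09 in each other comparison in which they had a value. For Hoxa9 these values are held by 544 genes in Ezh2-KO and 462 in Ezh2-WT. For Hoxd8 they are held by 718 genes in Suz12-KO and 727 in Ezh2-WT. Such values come from the authors' model and do not show an absent change. Hoxd13 and Hoxd9 overlap no other annotated gene, and no Hox transcript had a near-identical copy elsewhere in the annotation. Near-identical sequence was shared with an overlapping gene by 6 Hox genes, Hoxd11 among them.

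The authors' study concerns CpG islands, so the stretches before the starts of these 4 genes are shown, with those of Hoxa5, the member with the lowest value in Ring1A+B-DKO, and Hoxb8, a member without reads in any group. They are RefSeq promoters of build GRCm38.p6, 5′ to 3′, the 250 bases before the annotated start in each case except Hoxd9, where only the 214 bases before the GENCODE gene are printed. Capitals mark CpG dinucleotides.
Hoxd13, chr2:74667975-74668224, plus strand: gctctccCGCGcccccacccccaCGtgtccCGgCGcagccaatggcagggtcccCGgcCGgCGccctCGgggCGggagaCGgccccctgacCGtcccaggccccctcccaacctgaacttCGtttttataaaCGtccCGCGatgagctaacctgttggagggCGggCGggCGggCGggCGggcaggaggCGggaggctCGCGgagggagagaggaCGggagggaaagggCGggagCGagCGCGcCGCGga
Hoxa9, chr6:52227371-52227620, minus strand: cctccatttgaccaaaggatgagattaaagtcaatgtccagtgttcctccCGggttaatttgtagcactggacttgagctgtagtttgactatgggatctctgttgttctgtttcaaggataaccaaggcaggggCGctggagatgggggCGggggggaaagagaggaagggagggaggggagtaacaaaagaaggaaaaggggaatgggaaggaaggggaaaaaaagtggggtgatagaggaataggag
Hoxd8, chr2:74704365-74704614, plus strand: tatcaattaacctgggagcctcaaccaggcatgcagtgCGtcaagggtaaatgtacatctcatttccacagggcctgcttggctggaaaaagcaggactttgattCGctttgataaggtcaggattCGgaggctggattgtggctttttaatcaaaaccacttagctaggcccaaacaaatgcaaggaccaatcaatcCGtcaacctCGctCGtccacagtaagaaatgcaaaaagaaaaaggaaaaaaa
Hoxd9, chr2:74697513-74697726, plus strand: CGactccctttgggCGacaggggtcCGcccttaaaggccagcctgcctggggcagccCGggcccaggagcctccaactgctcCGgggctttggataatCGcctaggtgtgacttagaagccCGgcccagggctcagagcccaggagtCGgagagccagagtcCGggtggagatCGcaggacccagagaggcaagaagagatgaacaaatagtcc
Hoxa5, chr6:52204588-52204837, minus strand: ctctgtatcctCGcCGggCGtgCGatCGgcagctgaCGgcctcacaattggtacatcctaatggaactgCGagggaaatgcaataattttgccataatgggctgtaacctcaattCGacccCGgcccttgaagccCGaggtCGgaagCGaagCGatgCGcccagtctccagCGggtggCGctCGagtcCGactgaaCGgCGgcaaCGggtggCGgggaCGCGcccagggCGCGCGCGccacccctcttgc
Hoxb8, chr11:96281655-96281904, plus strand: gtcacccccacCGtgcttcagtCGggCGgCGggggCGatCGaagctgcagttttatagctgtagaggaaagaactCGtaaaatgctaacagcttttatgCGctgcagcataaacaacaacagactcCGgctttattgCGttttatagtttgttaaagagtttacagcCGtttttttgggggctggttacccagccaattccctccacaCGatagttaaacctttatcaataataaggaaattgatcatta

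The 4 genes that rose did not share a high CpG count in the 250 bases before the RefSeq start used. Bases after the start were not counted, so these counts do not show whether a CpG island lies there. Hoxd13 had 31 CpG in its 250 bases, and 5.19% of the 32851 RefSeq promoters have as many. Hoxa9 had 3, a number that 71.0% of promoters reach, Hoxd8 had 6 and Hoxd9 had 13, of which 10 lie in the bases printed. The Hoxa9 window lies in an intron of a longer annotated Hoxa9 transcript, and the bases before that longer transcript were not counted. Hoxa5, uncalled at 0.11, had 28 CpG, and Hoxb8, without reads, had 12. Since Hoxa5 lies inside the annotated Hoxa3 gene, its low value may depend on how shared reads were counted, which was not tested. Of the 38 members 21 had a RefSeq promoter in the table used, with a median of 12 CpG beside 6 over all promoters. Across the 19 of these with a value in Ring1A+B-DKO, Spearman's rho between CpG count and log2 fold change was -0.24, a description over genes that share libraries and neighbours. The letters TATAAA, on either strand, were found before Hoxd13 and Hoxb8, that is in 2 of the 21, and in 12.4% of all promoters. The letters CCAAT, on either strand, were found in 12 of the 21, Hoxd13 and Hoxd8 among them, and in 33.8% of all promoters.

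**Figure D2:**
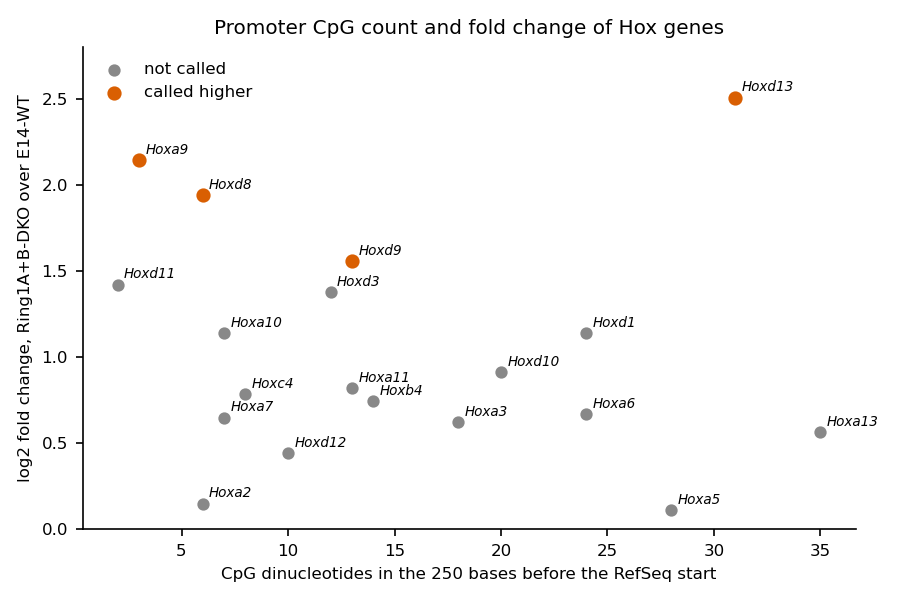
The horizontal axis gives the number of CpG dinucleotides in the 250 bases before the RefSeq start and the vertical axis the log2 fold change of Ring1A+B-DKO over E14-WT, for the 19 Hox genes with both; orange points were called higher. The called genes lie at 3, 6, 13 and 31 CpG, and Hoxa5 lies lowest at 28 CpG.

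By cluster, the Hox D genes of the authors' deposited table stood highest in Ring1A+B-DKO cells. Their median log2 fold change was 1.40 over 8 genes, and 3 of the 8 rose. The other 5 were not called: Hoxd11, a forearm gene, stood at 1.42, Hoxd3, which shapes the first neck vertebrae, at 1.37, and Hoxd1, a gene of pain-sensing neurons in mouse, at 1.14. Hoxd10, which acts in the lumbar cord, stood at 0.91 and Hoxd12, a digit gene, at 0.44. Hoxd1, Hoxd3 and Hoxd12 had no reads in the other 4 groups. Part of the Hoxd3 gene overlaps 5 other annotated genes, Hoxd4 among them, so its reads may be mixed with theirs. Hoxd10 and Hoxd11 overlap the annotated gene Gm28309 on the same strand, and the same limit holds for them.

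The Hox A cluster had a median of 0.62 over 11 genes, and Hoxa9 was its 1 called member. Hoxa10, a gene of the uterus and the thigh that overlaps no other gene, stood next at 1.14. Hoxa11 stood at 0.82, Hoxa6 at 0.67, Hoxa7 at 0.65 and Hoxa3, needed for thymus and parathyroid, at 0.62. Hoxa13, the digit gene at the 5′ end, stood at 0.56 and had reads in Ring1A+B-DKO alone, whereas its paralogue Hoxd13 was the highest of all members. At the low end were Hoxa2 and Hoxa4 both at 0.15, and Hoxa5, a gene of the lung and the rib cage, at 0.11. The annotated Hoxa3 gene runs across Hoxa4, Hoxa5 and Hoxa6 on the same strand, and reads may be divided among them. Hoxa2, Hoxa4 and Hoxc6 held exactly the same value, which 656 genes of the table share and which is the smallest given to any gene without reads in E14-WT. The ratio of such a gene has no finite value, so the size given is that of the authors' model and not a measured fold.

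The Hox B cluster had a median of 0.59 over its 6 genes with a value, none of them called, and the Hox C cluster one of 0.49 over 9 genes, also without a call. In Hox B, Hoxb7 stood highest at 0.997 and Hoxb6 next at 0.82. Hoxb4, known for its effect on blood stem cells, stood at 0.75, Hoxb13, a gene of the tail and prostate, at 0.44, Hoxb2 at 0.42 and Hoxb9 at 0.25. In Hox C, Hoxc5 stood highest at 1.33, but its annotated gene runs across Hoxc6, Hoxc8, Hoxc9 and Hoxc10, and reads may be divided among them. Hoxc4 stood at 0.78, Hoxc10 at 0.66, Hoxc11 at 0.50, Hoxc13, a gene of hair and nails, at 0.49 and Hoxc8 at 0.44. Hoxc9, Hoxc12 and Hoxc6 ended the list at 0.29, 0.19 and 0.15. The difference between clusters could not be tested, and with Hox D set aside the median of the rest was 0.53.

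Size without a call gave a wider picture. Of the 34 Hox genes 9 (26.5%) had a log2 fold change of at least 1 in Ring1A+B-DKO, beside 6.73% of all genes, and 6 of the 9 lie in Hox D. Besides the 4 called they were Hoxd11, Hoxd3, Hoxc5, Hoxd1 and Hoxa10. The authors called neither the highest of these, Hoxd11 at 1.42, nor 1004 of the 1595 genes of the table with an absolute value of at least 1. Of the called Hox genes Hoxd9 had the lowest value, 1.56. At an absolute value of 0.5 the counts were 21 of 34 Hox genes and 27.9% of all genes. Among the 19 Hox genes without reads in E14-WT, the median was 0.66, beside 0.20 over all 2259 such genes.

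**Figure D3:**
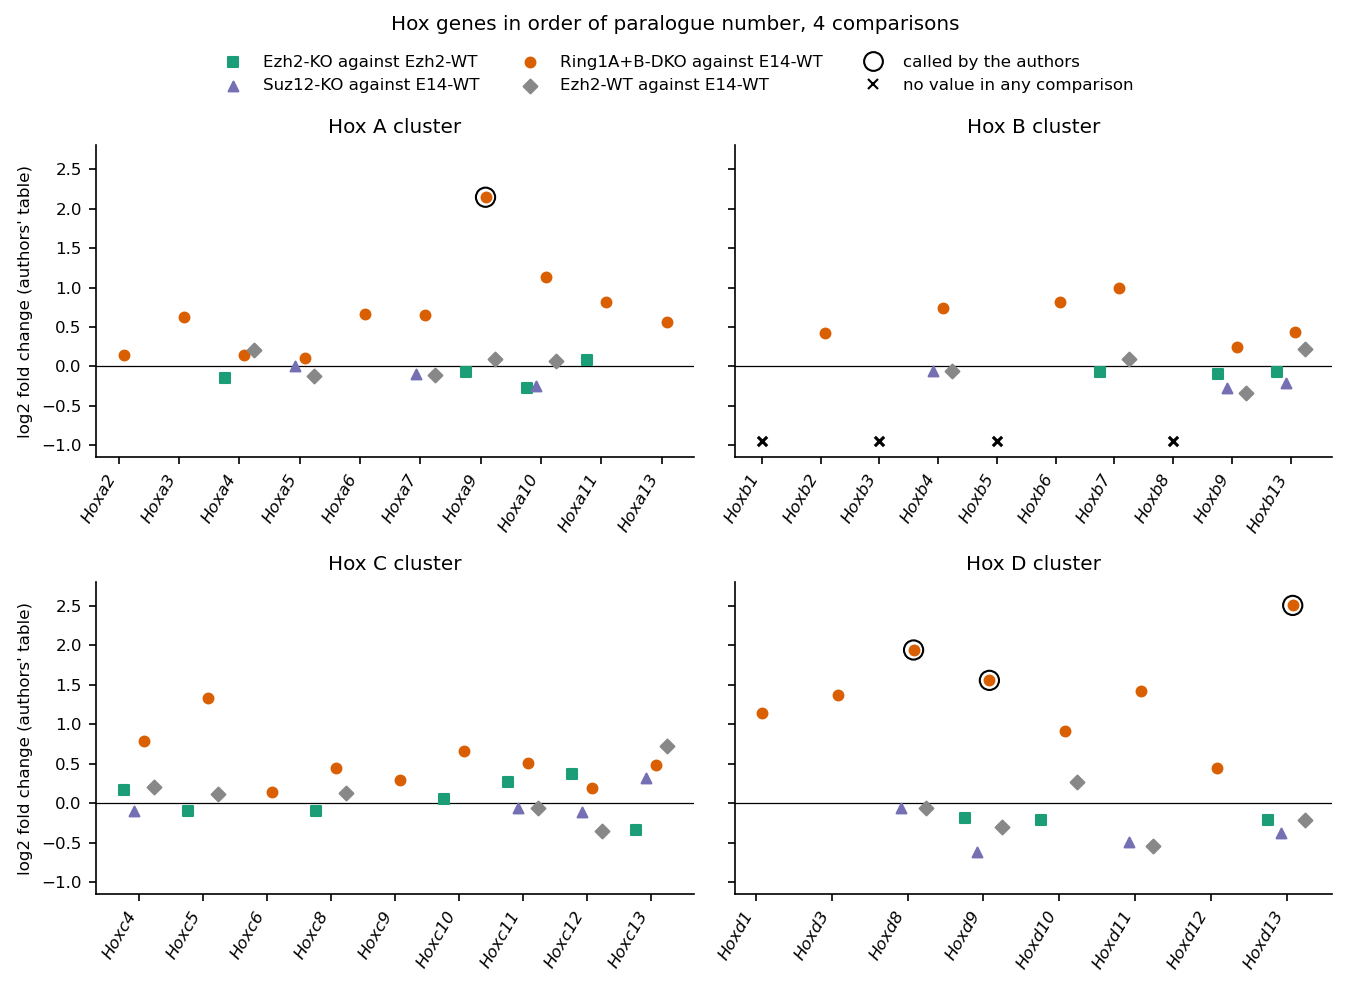
Each panel is 1 cluster, with 37 Hox genes in all, in order of paralogue number on the horizontal axis and the log2 fold change of the authors' deposited table on the vertical axis; colours and shapes mark the 4 comparisons, circles mark calls and crosses genes without a value. Ring1A+B-DKO points (orange) lie above 0 throughout and reach 2.51 at Hoxd13, while the other 3 comparisons stay between -0.62 and 0.73.

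Ezh2-KO cells, set against Ezh2-WT, lack the main methyltransferase of PRC2. By the authors' deposited table, 0 of the 18 Hox genes with a value were called, where 0.177% of all genes were, so this count says nothing particular of them. Their values lay between -0.34 and 0.37. Hoxc13 stood at -0.34 and Hoxc12, its neighbour at the 5′ end of Hox C, at 0.37, and the median was -0.09 beside -0.01 over all genes. Below 0 stood 13 of the 18 (72.2%), beside 52.2% of all genes. Those above 0 were Hoxa11 at 0.08 and 4 genes of Hox C, which besides Hoxc12 were Hoxc11 at 0.27, Hoxc4 at 0.17 and Hoxc10 at 0.06. In Hox D the 3 values were -0.21 for Hoxd13 and Hoxd10 and -0.19 for Hoxd9, and in Hox B they ran only from -0.09 to -0.07. An absolute value of 0.5 was reached by 0 of the 18 Hox genes and by 8.35% of all genes.

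Suz12-KO cells, set against E14-WT, lack a protein that the whole complex needs. By the authors' deposited table, 0 of the 15 Hox genes with a value were called, where 0.200% of all genes were. At so small a share, this count says nothing particular of the Hox genes. The values lay between -0.62 for Hoxd9 and 0.33 for Hoxc13, with a median of -0.11 beside -0.03 over all genes, or -0.28 over the 5 members with a value of their own. Below 0 stood 13 of the 15 (86.7%), beside 53.6% of all genes. Hoxd9 alone passed an absolute value of 0.5, as 9.14% of all genes did. Hoxd11 stood at -0.49, Hoxd13 at -0.37, Hoxb9 at -0.28 and Hoxa10 at -0.25. Hoxa5, at 0.0025, was the other member not below 0.

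The PRC2 knockouts share no library. Of 10 Hox genes with a value in both, 6 stood below 0 in both, among them Hoxa10, Hoxb9, Hoxd9 and Hoxd13, and 0 above 0 in both. Over all 16426 genes with both values, 31.9% stood below 0 in both. None of these 10 was called in either. Many of these values are not the gene's own: 12 of the 18 in Ezh2-KO and 7 of the 15 in Suz12-KO are shared with at least 10 genes, beside 23.5% and 23.3% of all values there. The same holds for 13 of the 34 in Ring1A+B-DKO and 11 of the 21 in Ezh2-WT, beside 22.9% and 23.3%. Ties of this kind are usual among genes with few reads, for which the absence of a call says little. Of all genes without reads in the control, 0 of 922 in Ezh2-KO and 0 of 1064 in Suz12-KO reached an absolute value of 1. In Ring1A+B-DKO 169 of 2259 did.

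Between the wild-type lines, Ezh2-WT against E14-WT, 0 of the 21 Hox genes measured in this pair were called. With 0.607% of all genes called there, this count says nothing particular of the Hox genes. Above 0 stood 10 (47.6%), beside 48.2% of all genes, and below 0 stood 11. The median was -0.06 beside -0.02 over all genes, or -0.21 over the 5 members with a value of their own and 0.083 without Hox D. Hoxc13 stood highest, at 0.73, and Hoxd11 lowest, at -0.54, and these 2 of the 21 alone passed an absolute value of 0.5, as 16.5% of all genes did. The value of Hoxc13 was thus farther from 0 between the wild-type lines than in Ring1A+B-DKO (0.49), Suz12-KO (0.33) or Ezh2-KO (-0.34), and these comparisons share control libraries. Hoxb9 and Hoxc12 stood at -0.34 and -0.35, and Hoxd10 at 0.27. None of the 4 genes called in Ring1A+B-DKO stood above 0.09 between the wild-type lines, where the values of Hoxa9 and Hoxd8 are held by 462 and 727 genes.

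Position along the clusters and size in Ring1A+B-DKO showed no order common to the 4 clusters. Spearman's rho between paralogue number and log2 fold change was 0.10 over 34 genes, a description of genes that share libraries and neighbours. Within Hox A it was 0.60 over 11 genes, within Hox D 0.12 over 8, within Hox B -0.09 over 6 and within Hox C -0.33 over 9. With the rank of the gene start in place of the number it was -0.02 within Hox C. That rank puts Hoxc5 between Hoxc9 and Hoxc10, where its long annotated gene starts, and not beside Hoxc6. The medians of paralogues 1 to 4, 5 to 8 and 9 to 13 were 0.62, 0.67 and 0.61, with 0, 1 and 3 genes called. Missing values were not spread alike: 9 of 11, 9 of 11 and 16 of 16 members of these ranges had a value.

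Paralogues of the same number had unlike values, a difference that could not be tested. Hoxa9 and Hoxd9 rose, by 2.14 and 1.56, while Hoxb9 stood at 0.25 and Hoxc9 at 0.29. In number 13, Hoxd13 rose by 2.51 and Hoxa13, Hoxc13 and Hoxb13 stood between 0.44 and 0.56. In number 8, Hoxd8 rose by 1.94, Hoxc8 stood at 0.44 and Hoxb8 had no reads. Of these, Hoxa9, Hoxc9, Hoxa13 and Hoxc8 had no reads in E14-WT, so their sizes are those of the authors' model and not measured folds.

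Other genes within the spans of the clusters were noncoding RNA genes for the most part. The authors' deposited table lists 23 such genes, of which 10 had a value in Ring1A+B-DKO and 1 rose, Hoxa11os at 1.65, an RNA gene antisense to Hoxa11 without reads in the other 4 groups. Without strand, its reads and those of Hoxa11, uncalled at 0.82, cannot be told apart. Hoxb3os stood at 1.11, Hotairm1, an RNA gene of Hox A, at 0.86 and Hoxaas3 at 0.70. Hotair, an RNA gene of Hox C, had no reads in any group, and neither had the microRNA genes Mir10a, Mir10b, Mir196b and Mir615. Below 0 stood Gm53 at -0.60, the pseudogene Gm11539 at -0.18 and Haglr at -0.11, an RNA gene beside Hoxd1.

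The 3 nearest protein-coding genes on each side of each cluster make 24 genes, of which 23 had a value in Ring1A+B-DKO. The authors called 0 of the 23, and with 3.00% of all genes called this count says nothing particular of the neighbours. They had a median of -0.08, 10 above 0 and 13 below. They ran from -0.62 for Ttll6, beside Hox B, to 0.76 for Lnpk, beside Hox D. The homeobox gene Evx1, which adjoins Hoxa13, stood at 0.25, and Evx2, which adjoins Hoxd13, had no reads in any group. Between the wild-type lines Calcoco2, beside Hox B, fell, at -1.14 in Ezh2-WT relative to E14-WT.

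**Figure D4:**
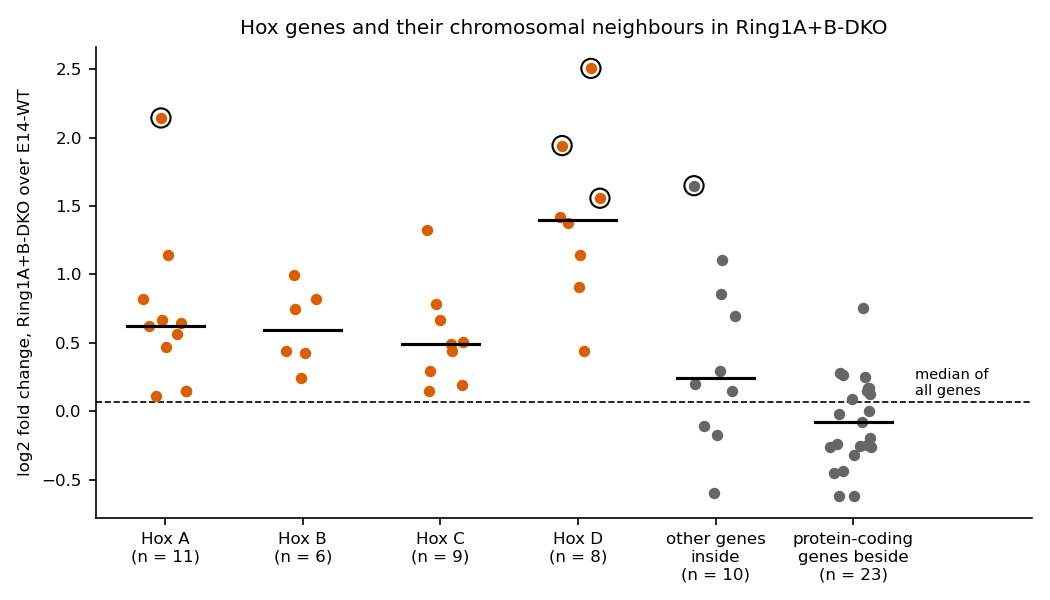
Points are log2 fold changes of Ring1A+B-DKO over E14-WT for the Hox genes of each cluster, the other genes inside the cluster spans and the 3 nearest protein-coding genes on each side; short bars are medians, circles are calls and the dashed line is the median of all genes (0.07). Hox D has its median at 1.40, and the genes beside the clusters have theirs at -0.08.

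Of 9 Hox cofactors, the Pbx, Meis and Pknox proteins that bind DNA together with Hox proteins, 1 rose in Ring1A+B-DKO, Meis1 at 1.80, and 0 fell, where 3.00% of all genes were called. Their median there was 0.31. In Ezh2-KO, Suz12-KO and Ezh2-WT 9, 8 and 9 of them had a value and 0 were called. Of all genes 0.177%, 0.200% and 0.607% were called in these comparisons. Pknox2 stood at -0.64 and Meis3 at 0.55 in Ring1A+B-DKO. Meis1, like Hoxa9 a gene of blood progenitors, stood at 0.11 in Ezh2-KO, -0.10 in Suz12-KO and -0.10 in Ezh2-WT.

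The ParaHox and Evx genes, the closest relatives of the Hox genes, had 0 calls among 8 in each of the 4 comparisons. In Ring1A+B-DKO 6 of the 8 had a value, all above 0, with a median of 0.23, and 4 of the 6 had no reads in E14-WT. Pdx1, the pancreas gene, stood at 1.17 and Cdx2, which switches on Hox genes of the trunk, at 0.57. Cdx1 stood at 0.02 in Ring1A+B-DKO, and at -1.31 in Suz12-KO and -1.29 in Ezh2-WT, which share the E14-WT libraries. Of 8 retinoid receptor and response genes, a pathway that induces Hox genes, 0 were called in the knockout comparisons, beside the same shares of all genes. A value was present for 6 in Ezh2-KO, 5 in Suz12-KO and 8 in Ring1A+B-DKO. In Ring1A+B-DKO their median was 0.35, with Stra8 at 1.44, Rarg at -1.16 and Cyp26b1 at 0.93. Rarg fell by 1.70 in Ezh2-WT relative to E14-WT. Among 17 Polycomb subunits in Ring1A+B-DKO, Phc2 rose by 1.15, and Phc1 fell by 1.68 beside the deleted Ring1. In Ezh2-KO and Suz12-KO 0 of the 17 were called, where 0.177% and 0.200% of all genes were. Cbx8, a chromodomain subunit of PRC1, stood at 1.24 in Ring1A+B-DKO, and Suz12 at 0.12.

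Of the markers of other cell types, 3 endoderm markers and 1 fibroblast marker rose in Ring1A+B-DKO, as the 4 Hox genes did, and their part in the result was not tested. Levels per group are not in the table, so only fold changes can be given. Endoderm markers rose in 3 of 8, beside the 2.38% of all genes called higher: Gata6 rose by 2.69, Gata4 by 2.39 and Dab2 by 1.87. Their median was 0.83 and 8 of 8 stood above 0, beside 55.4% of all genes, with the sign of 3 fixed by the absence of reads in E14-WT. Of 12 fibroblast or feeder markers, a cell type that expresses Hox genes, 9 had a value and 1 rose, Thy1 by 1.66, with a median of 0.44. Twist1 stood at 1.07, Col1a1 at 0.94 and Pdgfrb at 0.49, none called. The fibroblast genes Lum, Postn and S100a4 had no reads in any group, and Dcn, Col1a2, Col3a1 and Prrx1 had reads in no group other than Ring1A+B-DKO, with values from 0.15 to 0.44. Acta2 stood at -0.11. Of 9 primitive streak and posterior mesoderm markers 0 were called, 8 had a value and all 8 stood above 0, the sign of 3 again fixed, with a median of 0.51 and Eomes highest at 1.04. Neural markers had 0 increases and 2 decreases among 8: Olig2 fell by 2.37 and Tubb3 fell by 2.10, with Pax6 at 1.47. Yet 6 of these 8 stood above 0, the sign of 4 fixed by the absence of reads in E14-WT, and their median was 0.38. Of the 10 naive stem cell markers 1 rose, Klf4 by 1.04, and 0 fell, with a median of -0.13. In Ezh2-KO and Suz12-KO 0 members of any of these marker lists were called, where 0.177% and 0.200% of all genes were. Between the wild-type lines 1 of the 10 naive stem cell markers was called, where 0.607% of all genes were. It was Nanog, which fell by 1.15 in Ezh2-WT relative to E14-WT.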

How the data were processed

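The authors deposited 1 table of 38355 genes, with a DESeq2 log2 fold change and a logical call per comparison, per the file headers. Reads were processed with TopHat, featureCounts and DESeq2 on GRCm38 (mm10), per the submitters' processing notes. For versions, settings, call criteria and use of strand the status is: not given in the sources used here. The headers name Ensembl release 72, and 36602 identifiers (95.4%) were found in the GRCm38 annotation GENCODE M21, the source of symbols and coordinates. With no values per sample, the planned count test could not be run, and the authors' calls were used. Depth per sample and precision per value are unknown.

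Column signs were checked with missing values. Genes with reads in the named group and none in its control were positive in 922 of 922 cases in Ezh2-KO, and negative in 1064 of 1064, 2259 of 2259 and 1170 of 1170 cases in Suz12-KO, Ring1A+B-DKO and Ezh2-WT, whose columns were turned. The step from missing values to groups was tested on simulated data. That a missing value means no reads is an assumption that this could not test. Other annotated genes overlap 22 of the 38 Hox genes, on the opposite strand in 13. Near-identical transcripts were sought by blastn 2.17.0 (identity 95%, length 100 nt or more, coverage 50% or more). For genes with several RefSeq starts the most 5′ one was used.

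The members and lists were chosen with earlier results of these data known. A few genes are counted but not reported here by name. Named were the other members, then, of lists and neighbours, each called gene and up to 3 others by size; markers at or near 0 were added after their values were seen, as were the 2 promoters of uncalled genes. Alternatives were other size limits, the mean, centring, the header's sign, members with reads in the control or with a value of their own, and clusters left out. Scripts ran in Python 3.11.15 (pandas 2.3.3, numpy 2.4.6, scipy 1.17.1; plots by matplotlib 3.10.9).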

Additional observations from a re-analysis of the deposited data

How the results depend on the processing

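Of 54 alternative values, 39 stayed within 1.5 times of the count, or within 0.1 of the median or correlation on its own scale. Counting by size (1 or more on the log2 scale, either sign) in place of the authors' call gave 9 Hox genes in Ring1A+B-DKO against the 4 called, and a limit of 0.5 gave 21 there, 1 in Suz12-KO and 2 in Ezh2-WT, where 0 were called. Members that overlap no other gene, an alternative chosen after seeing the data, left 2 calls in Ring1A+B-DKO, since fewer genes were counted. With values that no other gene shares the median was -0.28 in Suz12-KO, -0.21 in Ezh2-WT and 1.14 in Ring1A+B-DKO. These members were picked by the values of the same comparison, so their medians are no independent check. The mean was 0.80 in Ring1A+B-DKO. Without Hox D the median was 0.53 in Ring1A+B-DKO and turned to 0.083 in Ezh2-WT, and without Hox C it was -0.25 in Suz12-KO; the cause was not tested. Header signs turned the medians, by construction, to -0.66 in Ring1A+B-DKO, 0.11 in Suz12-KO and 0.062 in Ezh2-WT. No paired analysis was possible because the table holds no values per sample, and leaving out replicates was not run for the same reason. For genes with few reads the size comes from the authors' model, and depth is unknown, so a small value does not show an absent change.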
